A study of Rattus norvegicus with 12 samples.

Results

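Nppa (ENSRNOG00000008176) and Nppb (ENSRNOG00000008141) encode the precursors of atrial and B-type natriuretic peptide. They were taken by these identifiers, 2 of the 34733 rows of each count file, by a rule that names them as load-response genes of the ventricle and sets no threshold on a measured value, with earlier results of these data known. Sprague-Dawley rat pups underwent either abdominal aortic banding (ABS) or sham surgery, and RNA of the left ventricle was sequenced at postnatal day 3 (P3) and postnatal day 7 (P7). For banding, the abdominal aorta was tied together with a needle that was then withdrawn, which left a narrowed lumen. Surgery was done on the first postnatal day, pups of both sexes were used, and no transgene, strain difference or drug separated the groups. The 4 groups, ABS P3, sham P3, ABS P7 and sham P7, had 3 libraries each, 12 in all. The tissue is labelled left ventricular myocardiocytes, whereas the study's methods describe collection of the ventricle, and the defining markers of the tissue were not analysed here because no table used here pairs the identifiers with symbols. The number of pups that the study allotted to sequencing equals the number of libraries in each group, so each library is taken as a separate pup.

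Natriuretic peptides are hormones that heart muscle cells release when the wall is stretched. The peptides bind the guanylyl cyclase receptor Npr1 on kidney, vessel and adrenal cells, where cyclic GMP then promotes salt excretion and relaxes vessels, and the receptor Npr3 clears them. In rodents, the ventricle makes much Nppa before birth and less of it as the heart matures, while the atria go on making it. Both genes are known to rise again in the loaded adult ventricle, where they serve as standard markers of pressure overload. The comparison of ABS with sham therefore asks whether the transcripts of these load-response genes differed after banding. The comparison of P7 with P3 asks how these transcripts moved over the neonatal period. The paper states that blood pressure could not be read this soon after surgery. Its pressure and ultrasound readings come from later ages, so the load at P3 and P7 is not known from them.

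Nppa and Nppb are neighbours on rat chromosome 5 with no annotated gene between them. In the RefSeq genes of the assembly GRCr8, Nppb was followed directly by Nppa, Clcn6 lay on the other side of Nppa, and 0 genes overlapped either of them. The 250 bases before the start of each gene, from RefSeq on the plus strand of GRCr8, are shown because the levels of the pair moved together across libraries. Capitals mark matches on either strand to 4 motifs, the GATA factor core GATA, the M-CAT element CATTCC, the NKX2-5 core AAGTG and the TATA box TATAAA. The Nppa stretch is chr5:163711934-163712183 and the Nppb stretch is chr5:163699758-163700007.
Nppa: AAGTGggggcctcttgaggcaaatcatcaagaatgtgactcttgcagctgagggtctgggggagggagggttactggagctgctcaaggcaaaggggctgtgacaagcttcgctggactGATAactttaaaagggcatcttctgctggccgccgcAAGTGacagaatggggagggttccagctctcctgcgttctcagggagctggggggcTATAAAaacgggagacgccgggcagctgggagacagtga
Nppb: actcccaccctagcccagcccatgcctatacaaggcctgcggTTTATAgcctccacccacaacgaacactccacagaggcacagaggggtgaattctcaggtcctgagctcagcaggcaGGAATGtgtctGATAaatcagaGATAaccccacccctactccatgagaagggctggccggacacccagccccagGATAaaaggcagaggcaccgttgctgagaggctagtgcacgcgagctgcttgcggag
The Nppa stretch held 1 GATA, 2 AAGTG and 1 TATAAA, the last of them 39 to 34 bases before the start. The Nppb stretch held 3 GATA, at 120 to 117, 109 to 106 and 57 to 54 bases before the start. It also held 1 CATTCC on the minus strand, at 131 to 126 bases, and 1 TATAAA on the minus strand, at 208 to 203 bases. None of these matches overlapped another in either stretch. Of 33469 rat stretches of the same length, 55.9% held GATA, 12.1% CATTCC, 40.6% AAGTG and 12.9% TATAAA, so GATA and AAGTG are common in such stretches. A match is a description of these letters and not a bound site. The genome build of the counted reads is not used for these positions.

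The libraries held 14268210 to 17286278 counts. Nppa took 0.0429% to 0.229% of the counts of a library and Nppb 0.00779% to 0.0315%. The 95% Wilson interval of the lowest Nppa share was 0.0419% to 0.0440%, and that of the lowest Nppb share was 0.00734% to 0.00826%. Such intervals cover counting error only, and both genes were read at a depth where counting error was small beside the spread between libraries. At P7, 18579 to 18982 genes had at least 1 count in a library. The P3 libraries stood apart from one another, with 15266 and 15719 detected genes in ABS replicates 1 and 2 and 15451 in sham replicate 2, against 17259 to 18359 in the other 3. Levels are given as CPM, a gene's counts divided by the TMM-adjusted size of the library, a scaling that sets the bulk of genes equal between libraries. They compare libraries for 1 gene and are not corrected for transcript length.

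At P3, Nppa was at 1340, 1851 and 563 CPM in ABS replicates 1, 2 and 3, and at 783, 2854 and 1287 CPM in sham replicates 1, 2 and 3. The groups overlapped, as they did for all but 3.47% of the genes tested, and the lowest library was from the ABS group and the highest from the sham group. The group means were 1251 ± 649 CPM (SD, n = 3) after ABS and 1641 ± 1080 CPM (SD, n = 3) after sham surgery. The log2 fold change of ABS against sham was -0.38 (standard error 0.60, 95% interval -1.79 to 1.04, adjusted p = 1.00, edgeR quasi-likelihood). The interval thus spans levels 0.289 to 2.05 times those after sham surgery. Nppb was at 229, 351 and 102 CPM in ABS replicates 1, 2 and 3, and at 136, 327 and 259 CPM in sham replicates 1, 2 and 3. The Nppb groups overlapped too, with both the lowest and the highest library in the ABS group. The means were 227 ± 125 CPM (SD, n = 3) after ABS and 241 ± 96.7 CPM (SD, n = 3) after sham surgery. The log2 fold change was -0.07 (standard error 0.51, 95% interval -1.26 to 1.13, adjusted p = 1.00 from edgeR). Of 14222 genes tested at P3, 0 (0%) were called at an adjusted p under 0.05 by edgeR, 47 (0.33%) had an unadjusted p under 0.05. DESeq2 called 4 of 20152 genes at the adjusted threshold. Neither peptide was among these. In the edgeR fit, the 95% interval of each peptide included 0. The smallest difference that could be detected was not computed.

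The peptides were also set beside the number of detected genes at P3. Nppa was at 1340 to 2854 CPM in the 3 libraries with fewer detected genes and at 563 to 1287 CPM in the 3 with more. Without TMM scaling, the ranges were 1133 to 2288 CPM and 592 to 1269 CPM. Whether these sets overlapped for Nppa thus depended on the scaling. The share of all genes that separated these sets was not counted, so the split cannot be called particular to Nppa. Nppb was at 229 to 351 CPM in the first set and 102 to 259 CPM in the second, with an overlap. Each set held libraries of both surgeries. Within the set with fewer genes, the ABS libraries (n = 2) were lower than the sham library (n = 1) by a log2 difference of -0.86 for Nppa and -0.21 for Nppb. Within the set with more, the ABS library (n = 1) differed from the sham libraries (n = 2) by -0.83 for Nppa and -0.89 for Nppb. Each of these differences rests on 1 library on one side, so its spread is unknown and no conclusion is drawn from its sign. With detected genes as a covariate, the log2 fold change of Nppa was -0.85 (unadjusted p = 0.00244, adjusted p = 0.227 from edgeR) and that of Nppb -0.54 (adjusted p = 0.573). In that fit, 1537 of 14222 genes (10.8%) had an unadjusted p under 0.05, and 0 had an adjusted p under 0.05. The part of detected genes in the levels was not tested beyond these fits. Without sham replicate 2, the log2 fold change was 0.29 for Nppa and 0.22 for Nppb, and without ABS replicate 3, it was -0.02 for Nppa and 0.29 for Nppb. With limma's sample quality weights on all 6 libraries, it was 0.18 for Nppa and 0.13 for Nppb (adjusted p = 0.842 and 0.876).

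At P7, the level of Nppa after ABS was carried by 1 library. Nppa was at 424, 404 and 2047 CPM in ABS replicates 1, 2 and 3, and at 756, 440 and 764 CPM in sham replicates 1, 2 and 3. The groups overlapped, as they did for all but 8.83% of the genes tested, with ABS replicates 1 and 2 below every sham library and ABS replicate 3 above every one. The means were 958 ± 943 CPM (SD, n = 3) after ABS and 653 ± 185 CPM (SD, n = 3) after sham surgery, while the medians were 424 and 756 CPM. The log2 fold change was 0.56 (standard error 0.82, 95% interval -1.67 to 2.78, adjusted p = 1.00, edgeR quasi-likelihood). Without ABS replicate 3, it was -0.66 (adjusted p = 0.844). With limma's sample quality weights on all 6 libraries, it was -0.11 (adjusted p = 0.985).

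Nppb at P7 was at 104, 73.3 and 244 CPM in ABS replicates 1, 2 and 3, and at 140, 112 and 188 CPM in sham replicates 1, 2 and 3. ABS replicates 1 and 2 were again the 2 lowest libraries of the day and ABS replicate 3 the highest. The means were 141 ± 91.1 CPM (SD, n = 3) after ABS and 146 ± 38.5 CPM (SD, n = 3) after sham surgery. The log2 fold change was -0.06 (standard error 0.54, 95% interval -1.51 to 1.40, adjusted p = 1.00 from edgeR). Without ABS replicate 3, it was -0.72 (adjusted p = 0.826), the same direction as for Nppa. Of 14635 genes tested at P7, 0 (0%) were called at an adjusted p under 0.05 by edgeR, 498 (3.4%) had an unadjusted p under 0.05. DESeq2 called 15 of 15655 genes at the adjusted threshold. Neither peptide was among any of these. ABS replicates 1, 2 and 3 had 18844, 18948 and 18842 detected genes. In bulk tissue, fewer or more cells that express a gene and less or more RNA per cell cannot be told apart.

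**Figure D1:**
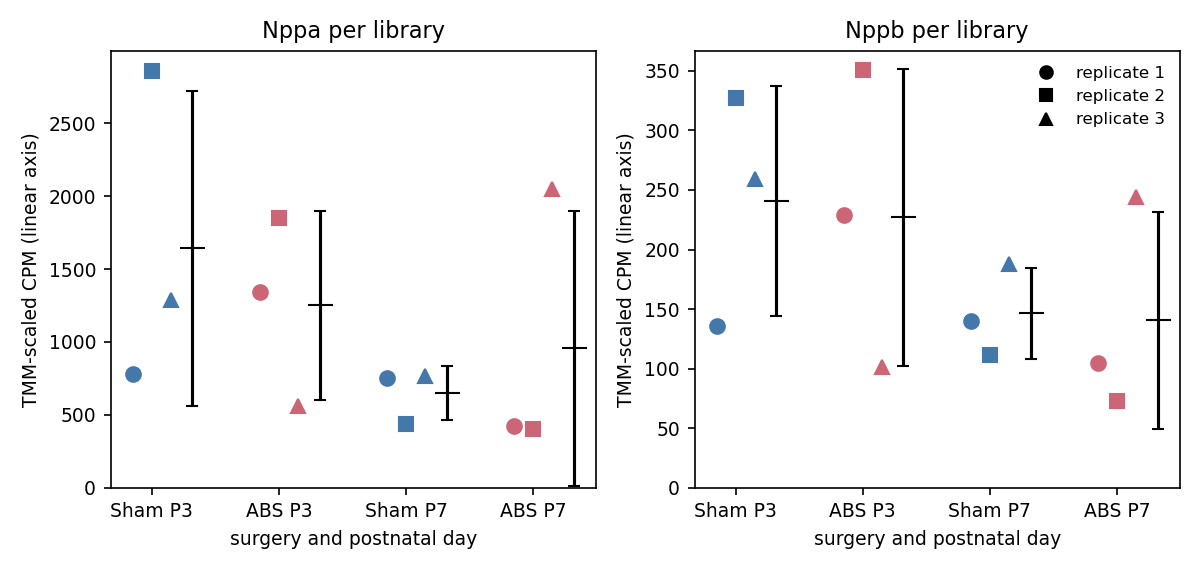
Nppa (left) and Nppb (right) in TMM-scaled CPM on a linear axis for each of the 12 libraries by surgery and postnatal day, with marker shape for the replicate number and black bars for the mean and SD of 3 libraries. ABS replicate 3 at P7 sits at 2047 CPM for Nppa, above the other 5 libraries of that day at 404 to 764 CPM.

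The estimates moved with the libraries that entered them. At P3, the log2 fold change of ABS against sham ranged from -0.76 to 0.29 for Nppa and from -0.52 to 0.29 for Nppb when 1 library was left out. At P7, it ranged from -0.66 to 0.92 for Nppa and from -0.72 to 0.25 for Nppb. The Nppa estimate at P7 was above 0 in the 5 fits that kept ABS replicate 3.

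**Figure D2:**
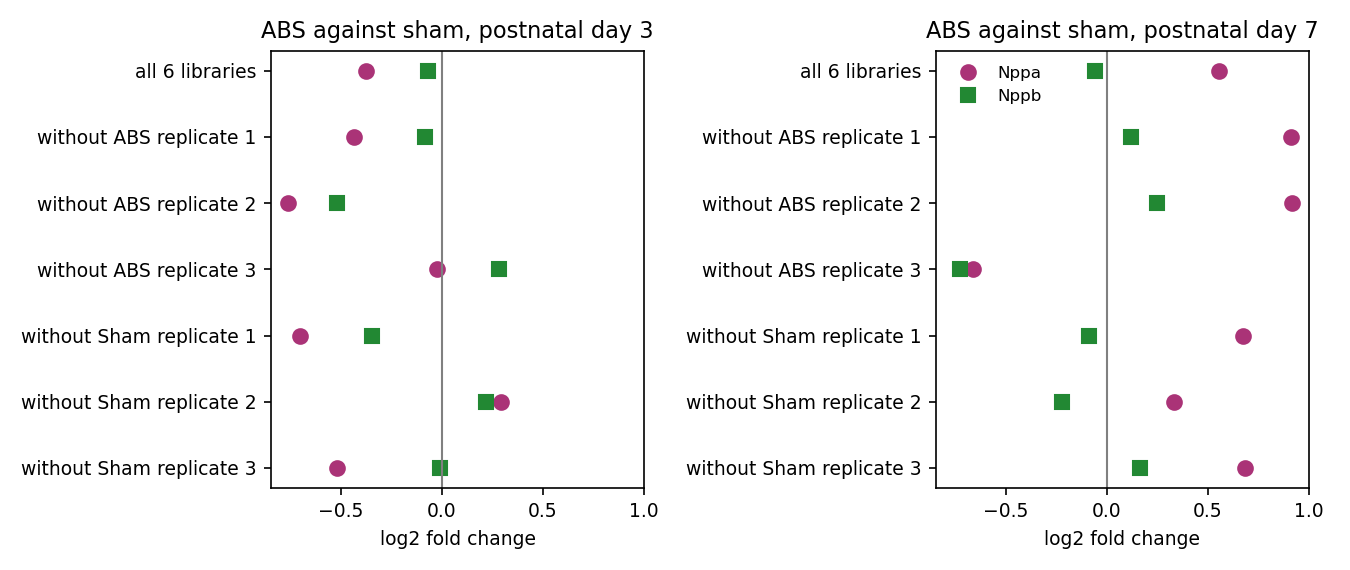
Log2 fold change of ABS against sham for Nppa (circles) and Nppb (squares) at P3 and P7, with all 6 libraries and with each library left out in turn; the vertical line marks no difference. Nppa at P7 moves from 0.56 to -0.66 without ABS replicate 3.

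Whether the ABS effect differed between the days was tested with a surgery-by-day term over 12 libraries. For Nppa, the log2 fold change at P7 exceeded that at P3 by 0.94 (standard error 0.97, 95% interval -1.19 to 3.08, adjusted p = 1.00 from edgeR). For Nppb, the difference was 0.03 (standard error 0.74, 95% interval -1.59 to 1.65, adjusted p = 1.00 from edgeR). Without ABS replicate 3 of P7, the differences were -0.29 and -0.66. Of 15236 genes, edgeR called 0 (0%) at the adjusted threshold and 176 (1.16%) at the unadjusted one. DESeq2 called 5 of 22591 genes at the adjusted threshold.

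From P3 to P7, both peptides were lower on average in each surgery group. In the sham group, every P7 library had less Nppa (440 to 764 CPM) than every P3 library (783 to 2854 CPM). Without TMM scaling the days overlapped, with sham replicate 1 of P3 at 797 CPM and the P7 libraries at 471 to 835 CPM. The log2 fold change of P7 against P3 was -1.34 (standard error 0.50, 95% interval -2.54 to -0.14, unadjusted p = 0.0340, adjusted p = 0.296 from edgeR). It did not pass the adjusted threshold, and with total counts alone the log2 fold change was -1.04 (adjusted p = 0.373 from edgeR). Groups that did not overlap were found for 30% of the 14619 genes tested and an unadjusted p under 0.05 for 16.1%, so the pattern was common, while 1 gene (0.00684%) was called by edgeR at the adjusted threshold. DESeq2 called 412 of 15585 genes. With DESeq2, the adjusted p of Nppa was 0.124. Nppb in the sham group was at 112 to 188 CPM at P7 and 136 to 327 CPM at P3, and the days overlapped. Its log2 fold change was -0.72 (standard error 0.36, 95% interval -1.58 to 0.14, adjusted p = 0.345 from edgeR).

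The sham comparison of the days depended on which P3 libraries entered it. Without sham replicate 1 of P3, the log2 fold change was -1.68 for Nppa (adjusted p = 0.0271 from edgeR) and -1.02 for Nppb (adjusted p = 0.0268), in a fit that called 4820 of 14979 genes (32.2%). Without sham replicate 2 of P3, the library with fewer detected genes, it was -0.67 for Nppa (adjusted p = 0.388) and -0.43 for Nppb (adjusted p = 0.553). With detected genes as a covariate, it was -0.05 for Nppa and -0.0022 for Nppb. The number of detected genes was higher in every sham library of P7 (18579 to 18982) than in those of P3 (15451 to 18359), so the day and that number cannot be told apart.

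In the ABS group, Nppa was at 404 to 2047 CPM at P7 and 563 to 1851 CPM at P3, and the highest of the 6 libraries was from P7. The log2 fold change of P7 against P3 was -0.42 (standard error 0.74, 95% interval -2.17 to 1.34, adjusted p = 0.739 from edgeR). Nppb was at 73.3 to 244 CPM at P7 and 102 to 351 CPM at P3, and its log2 fold change was -0.72 (standard error 0.58, 95% interval -2.11 to 0.66, adjusted p = 0.471 from edgeR). Without ABS replicate 3 of P7, the log2 fold changes were -1.62 for Nppa and -1.38 for Nppb (adjusted p = 0.543 for each). With limma's sample quality weights on all 6 libraries, they were -1.50 for Nppa (adjusted p = 0.0875) and -1.43 for Nppb (adjusted p = 0.0292). That fit called 6733 of 14504 genes (46.4%). With detected genes as a covariate, they turned to 1.58 and 1.24 (adjusted p = 0.614 and 0.538). Every ABS library of P7 had more detected genes (18842 to 18948) than those of P3 (15266 to 17530), so here too the day and that number cannot be told apart. The days overlapped for both genes, and of the 14504 genes tested, 28% did not overlap, 17.7% had an unadjusted p under 0.05 and edgeR called 2 (0.0138%) at the adjusted threshold. DESeq2 called 529 of 15465 genes.

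**Figure D3:**
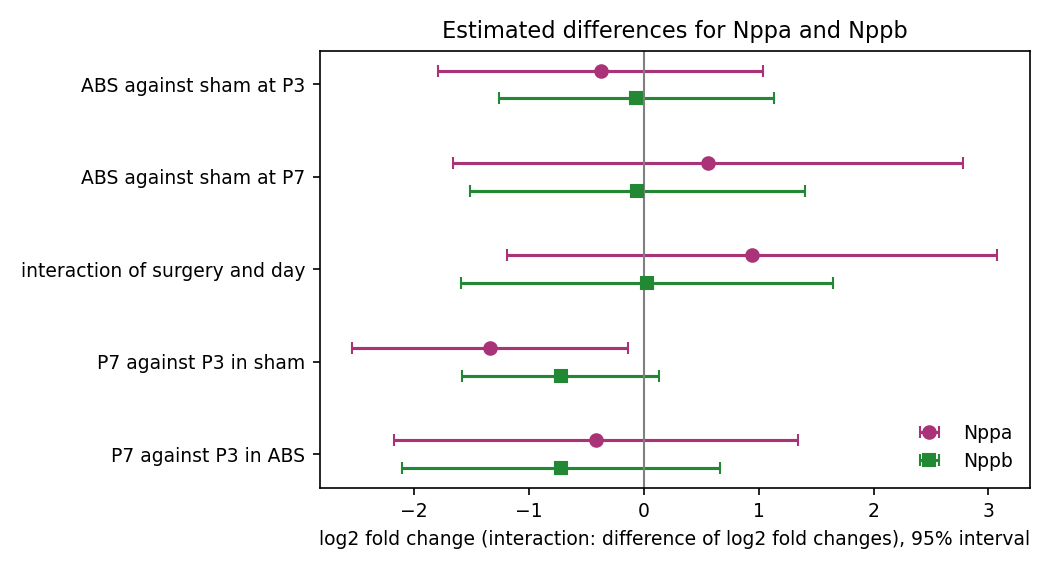
Log2 fold changes of Nppa (circles) and Nppb (squares) from edgeR in 5 comparisons, with 95% intervals as bars; the interaction is the difference of the log2 fold changes of P7 and P3. The interval lies wholly below 0 for Nppa in the sham group from P3 to P7 (-2.54 to -0.14), and the other 9 intervals cross 0.

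By group mean, the order of Nppa was sham P3 (1641 CPM), ABS P3 (1251 CPM), ABS P7 (958 CPM) and sham P7 (653 CPM). By group median, ABS P3 came first (1340 CPM), then sham P3 (1287 CPM), sham P7 (756 CPM) and ABS P7 (424 CPM). The means of neighbours in either order differed by less than the larger of their SDs. For Nppb, the order by mean was sham P3 (241 CPM), ABS P3 (227 CPM), sham P7 (146 CPM) and ABS P7 (141 CPM), and here too neighbouring groups lay within the larger SD of each other.

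The spread of the peptides within a group was wide for these libraries. At P7, the SD of log2 CPM within the ABS group was 1.33 for Nppa and 0.89 for Nppb, where the median over 9130 genes with at least 10 CPM was 0.12. A smaller SD than that of the peptide was found for 99.8% of these genes for Nppa and 99.5% for Nppb. Sham libraries of P7, with no banding, also differed more in the peptides than in most genes, with SDs of 0.46 and 0.38 against a median of 0.10 and with 98.3% and 96.9% of genes below them. At P3, where all genes spread more (medians of 0.44 and 0.43), the SD was 0.89 after ABS and 0.94 after sham surgery for Nppa, and 0.91 and 0.65 for Nppb. Of the 9130 genes, 73.5% to 87.8% had a smaller SD than the peptides in the P3 groups. Between the lowest and highest of 12 libraries, Nppa differed 7.06-fold and Nppb 4.79-fold.

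Nppa and Nppb rose and fell together from library to library. Across the 6 libraries of P3, their log2 CPM correlated with a Pearson r of 0.944 (exact permutation p = 0.00833, adjusted p = 0.0222) and a Spearman rho of 0.886 (exact permutation p = 0.0333, adjusted p = 0.0667). Across the 6 libraries of P7, r was 0.907 (exact permutation p = 0.00139, adjusted p = 0.0111) and rho was 1.00 (exact permutation p = 0.00278, adjusted p = 0.0111). All tests were two-sided and adjusted over 4 relations, each with r and rho. Leaving out the 2 libraries farthest from the median of Nppa gave an r of 0.985 at P3 and 0.894 at P7 (n = 4). Each point is a library, so both values share its scaling factor, and r was 0.914 at P3 and 0.904 at P7 without TMM scaling. The other 2 relations were those of the number of detected genes at P7 with Nppa (r = -0.086, rho = -0.143) and with Nppb (r = -0.053, rho = -0.143), with exact permutation p of 0.803 to 0.918, all 0.918 after adjustment. Without the 2 libraries farthest in detected genes, r was -0.130 and -0.430. The number of detected genes spanned only 18579 to 18982 at P7, so a relation could hardly show there and no conclusion is drawn. At P3, the number of detected genes fell into separate sets of 3, so no correlation with it was computed.

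**Figure D4:**
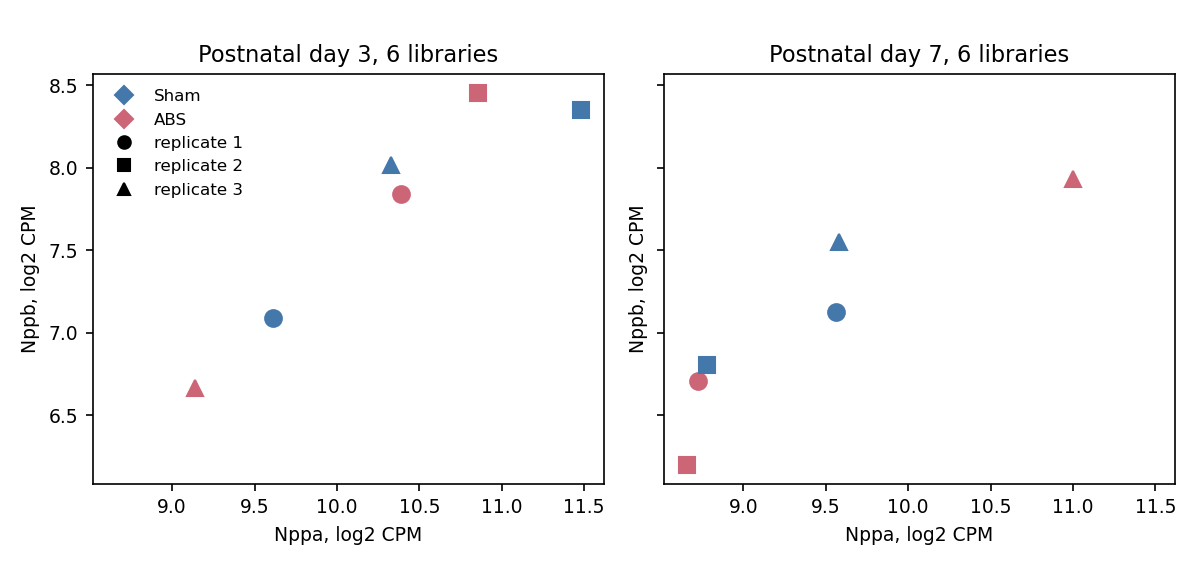
Nppb against Nppa, both in log2 CPM, in the 6 libraries of P3 (left) and P7 (right), with colour for surgery and shape for the replicate number. ABS and sham libraries lie along the same upward line on each day, with ABS replicate 3 at the bottom left at P3 and at the top right at P7.

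The genes whose pattern was most like each peptide were sought among genes with at least 10 CPM, by Pearson's r of log2 CPM over 12 libraries after the means of the 4 groups were taken out. Nppb ranked 6 of 9129 genes by likeness to Nppa, and Nppa ranked 3 of 9129 by likeness to Nppb (r = 0.941, rho = 0.958). The gene most like Nppa was ENSRNOG00000050675 (r = 0.975), which was at 220 to 664 CPM at P3 and 45.2 to 143 CPM at P7. At P7, its highest level was in ABS replicate 3, as for Nppa. It was picked by its likeness to Nppa over these same libraries, so this is no separate observation. The next was ENSRNOG00000003546 (r = 0.967), at 11.5 to 78.1 CPM. For Nppb, ENSRNOG00000018410 (r = 0.948, 18.7 to 41.9 CPM) and ENSRNOG00000015591 (r = 0.942, 30.3 to 65.7 CPM) ranked first and next. At P3, ENSRNOG00000050675 was at 463 to 664 CPM in the libraries with fewer detected genes and 220 to 343 CPM in the others. ENSRNOG00000018410 was at 38.4 to 41.9 CPM and 22.2 to 32.3 CPM. ENSRNOG00000003546 and ENSRNOG00000015591 overlapped between these sets. The part of detected genes in the likeness was not tested. All these values are descriptions over libraries that share their scaling, and the identifiers were not paired with symbols.

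The ratio of Nppa to Nppb counts within a library does not depend on its depth or scaling. It was 5.85, 5.28 and 5.54 in ABS replicates 1, 2 and 3 of P3, a narrow range. In sham replicates 1, 2 and 3 of P3, it was 5.75, 8.73 and 4.97. At P7, it was 4.06, 5.52 and 8.38 in ABS replicates 1, 2 and 3. In sham replicates 1, 2 and 3 of P7, it was 5.41, 3.94 and 4.07. The highest ratios, 8.73 and 8.38, were in the libraries with the most Nppa, sham replicate 2 of P3 and ABS replicate 3 of P7. Nppa is the numerator of the ratio, so part of this follows from how the ratio is formed. The median of 12 libraries was 5.46. The SD of log2 CPM over a day's libraries was 1.18 times as large for Nppa as for Nppb at P3 and 1.43 times at P7. Counting error of the log2 ratio was at most 0.047 (standard error), where the SD between the libraries of a group was 0.075 in the ABS group of P3 and 0.25 to 0.53 in the other 3 groups.

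The mean ratio was 5.56 ± 0.289 (SD, n = 3) in the ABS group and 6.48 ± 1.99 (SD, n = 3) in the sham group at P3. At P7, it was 5.98 ± 2.20 (SD, n = 3) and 4.47 ± 0.812 (SD, n = 3). The difference in mean log2 ratio between ABS and sham was -0.18 at P3 (exact permutation test, two-sided, p = 0.8) and 0.37 at P7 (p = 0.3, exact), where 0.1 is the smallest p that 3 libraries against 3 allow. Between P7 and P3, it was -0.51 in the sham group (p = 0.2, exact) and 0.04 in the ABS group (p = 0.9, exact). After adjustment over these 4 comparisons, the exact p-values were 0.6 to 0.9. With all 12 libraries, the difference was 0.10 between ABS and sham within days (exact permutation test over 400 assignments, p = 0.66) and -0.23 between P7 and P3 within surgeries (p = 0.345, exact), where 0.005 is the smallest possible. The groups overlapped in all 4 comparisons.

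**Figure D5:**
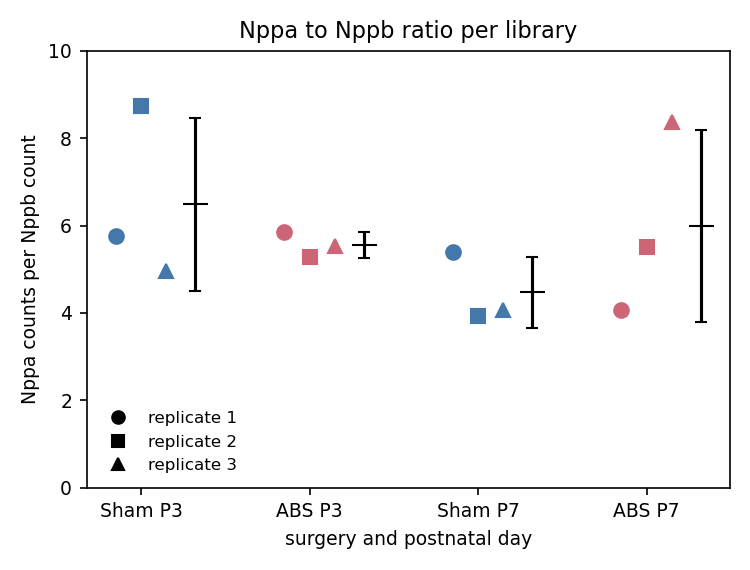
Nppa counts per Nppb count in each library by surgery and postnatal day, on a linear axis from 0, with black bars for the mean and SD of 3 libraries. The ABS libraries of P3 lie within 5.28 to 5.85, and the highest ratios are 8.73 in the sham group of P3 and 8.38 in the ABS group of P7.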

How the data were processed

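Poly-A RNA was sequenced in 12 libraries, 3 for each of ABS and sham at P3 and P7, grouped by the sample titles. The values the authors deposited are raw counts of reads per gene, 1 file per library, on 32883 Ensembl genes and 1850 other numbered rows (0.983% to 1.27% of counts), which stayed in the tests. As the study's methods describe, the authors discarded low-quality, adapter and poly-N reads and used featureCounts for counting. The submitters' processing notes name HISAT2 2.0.5 and the mouse builds GRCm38 and mm10, although the identifiers are of the rat. The rat build, annotation and strand setting are not given in the sources used here. The kit does not mark strand, so antisense reads would be counted with either gene.

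The whole table was fitted in edgeR 4.0.16 under R 4.3.3, with filterByExpr, TMM and robust quasi-likelihood F tests, two-sided, adjusted by the Benjamini-Hochberg method over all genes tested, and only the rows of Nppa and Nppb are reported. The 95% intervals use the standard error that the F statistic implies. Only the libraries of the groups compared entered a fit. Ratios used raw counts and exact permutation tests (scipy 1.17.1). Log2 CPM had a prior count of 2 for likeness, for the median SD over all genes and for the share of genes with a smaller SD. The SDs printed for the peptides had no prior count. The genes named as alike were the leading 2 by Pearson's r for each peptide. The test was checked on simulated data. Alternatives were DESeq2 1.42.0, voom with sample quality weights (limma 3.58.1), RLE or total-count scaling, no filter or 1 CPM in 3 libraries, no robust estimates, detected genes as a covariate, a replicate block, all 12 libraries together, each library left out, and thinning to 14268210 counts. Lists of pathway genes and cell type markers were set by symbol and not run, since 0 of 32883 identifiers matched RefSeq genes. Both peptides were matched to RefSeq by symbol. The members and lists were chosen with earlier results of these data known.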

Additional observations from a re-analysis of the deposited data

How the results depend on the processing

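No comparison of ABS with sham and no interaction of surgery and day was called at an adjusted p under 0.05 for either peptide in the 116 fits under the alternatives, and 5 of the 68 fits of P7 against P3 were. These were limma with sample quality weights in the sham group (-1.10 for Nppa, adjusted p = 0.0121; -0.88 for Nppb, adjusted p = 0.0105) and for Nppb in the ABS group (-1.43, adjusted p = 0.0292), and both peptides without sham replicate 1 of P3. Calls were common in these fits, since limma called 46% of genes (sham) and 46.4% (ABS), and edgeR called 32.2% without sham replicate 1 of P3. The direction was not stable. With sample quality weights, the log2 fold change of ABS against sham turned to 0.18 for Nppa and 0.13 for Nppb at P3 and to -0.11 for Nppa at P7, and the interaction turned to -0.35 for Nppa and -0.50 for Nppb. With detected genes as a covariate, P7 against P3 in the ABS group turned to 1.58 for Nppa and 1.24 for Nppb. The cause was not tested. RLE or total-count scaling, both filters, DESeq2, fits without robust estimates, all 12 libraries together and thinning kept the direction of every comparison of either peptide.

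With 1 library left out, the interaction ranged from -0.29 to 1.34 for Nppa and from -0.66 to 0.48 for Nppb, P7 against P3 in the sham group from -1.68 to -0.67 for Nppa and from -1.02 to -0.43 for Nppb, and in the ABS group from -1.62 to -0.01 for Nppa and from -1.38 to -0.25 for Nppb. ABS against sham ranged from -0.76 to 0.29 (Nppa, P3), -0.52 to 0.29 (Nppb, P3), -0.66 to 0.92 (Nppa, P7) and -0.72 to 0.25 (Nppb, P7). The log2 ratio of Nppa to Nppb ranged from -0.35 to 0.055 for ABS against sham at P3, from 0.10 to 0.62 at P7, from -0.68 to -0.27 for P7 against P3 in the sham group and from -0.23 to 0.29 in the ABS group. A direction of the ratio or of Nppa turned when sham replicate 2 of P3 or ABS replicate 3 of P7 was left out, and one of Nppb turned with these and with several other libraries. Where a group was left with 2 libraries, the fit pooled the spread.

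No source says that libraries with the same number share an animal or litter, and their deviations for replicates 1, 2 and 3 correlated across genes at -0.446, 0.361 and -0.00765 (P3) and 0.011, 0.0545 and 0.0045 (P7), so numbers were not taken as pairs. With the replicate block, the interaction for Nppb turned to -0.10 (adjusted p = 1.00), and no other direction changed and no call was made. A stratum for libraries with fewer detected genes, added after seeing the data, gave -0.84 for Nppa and -0.55 for Nppb at P3 (adjusted p = 0.973 for each). At 1111 to 38167 counts per peptide and library, the counting error of the levels was small beside the spread between the 3 libraries of a group. Other limits were not compared.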
